A study of Mus musculus with 50 samples.

Results

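The mouse Fc gamma receptors and their shared signalling chain were examined in the spleen of mice given immunostimulatory oligodeoxynucleotides (ODN). The genes are Fcgr1, Fcgr3 and Fcgr4, which encode activating receptors for immunoglobulin G (IgG), Fcgr2b, which encodes the inhibitory one, and Fcer1g, which encodes the common gamma chain. They were taken by gene symbol from the array's annotation and make up 5 of 15312 named genes with a measured probe, on 6 of 36607 probes in the value table. Fcgr2b has 2 probes and every other gene 1. All 6 probes had a value on all 50 arrays, so no member was lost to a filter.

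Activating Fc gamma receptors carry a binding subunit that pairs with the common gamma chain, whose cytoplasmic ITAM motif recruits the kinase Syk once IgG complexes cluster the receptor. Fcgr2b carries an ITIM motif instead and recruits the phosphatase encoded by Inpp5d, which dampens signals from activating receptors and from the B cell receptor. In the spleen the activating receptors are found mainly on macrophages, monocytes, neutrophils and, for Fcgr3, NK cells, while Fcgr2b is the Fc gamma receptor of B cells and is also made by myeloid cells. Interferon gamma is a known inducer of Fcgr1 and Fcgr4. CpG ODN are ligands of the endosomal receptor TLR9.

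Whole spleens of female mice were compared with a pooled Universal Mouse Reference RNA on two-colour arrays, 1 spleen sample to an array. BALB/c WT mice received 400 µg of a mixture of CpG ODN 1555 and 1466 by intraperitoneal injection and were examined after 0.5, 1, 3, 9, 24 or 72 h (n = 4 arrays at each time), received the same dose of the control ODN 1612 and 1471 and were examined after 3 h (n = 4), or were untreated (n = 6). C57BL/6 TNF-KO mice, in which the gene of tumor necrosis factor is knocked out, were examined 3 h after CpG ODN or untreated (n = 4 each), and so were C57BL/6 control mice (n = 4 each). The labels give no ODN dose for the C57BL/6 arrays and no age for any mouse. A second label field calls the CpG-treated C57BL/6 arrays of both genotypes untreated, and the arrays were grouped by title.

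Each value is the log2 ratio of spleen RNA to reference RNA after centring the array on its median, and a value of 0 is the level in the reference RNA at the array median. A difference was called when its adjusted p in limma's moderated test, over all genes of the fit, was under 0.05, and errors of log2 changes are standard errors. These p-values reflect array-to-array spread within groups. Tnf checked the genotype labels, with log2 ratios of -0.45 to 0.43 in CpG-treated TNF-KO spleens, against 3.16 to 4.59 in CpG-treated control spleens, and of -0.61 to 0.09 in untreated TNF-KO spleens, against 0.58 to 0.78 in untreated control spleens. Of 11 spleen-defining genes measured, 10 lay above the reference RNA on every array with a value, and Cd3e did so on 48 of 49. The mean log2 ratio of 13 pancreas markers ran between 0.14 and 6.84 over the arrays, and with that mean as a covariate no comparison changed its number of called Fc receptor genes. The array numbers in the titles form 11 runs, split where numbers jump by over 10. The 72 h and control ODN arrays lie in a run without any untreated array, and there run and group cannot be told apart.

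Fcgr2b, Fcgr4 and Fcgr3 lie in this order along chromosome 1, Fcer1g lies farther along the same chromosome and Fcgr1 lies on chromosome 3. The start regions of Fcgr4, Fcgr1 and Fcer1g, the genes called most often after CpG ODN, are given from 250 bases before to 50 bases after the transcript start (RefSeq, GRCm38.p6, in transcript direction). The Fcgr4 window is chr1:171018676-171018975 on the plus strand, the Fcgr1 window chr3:96293920-96294219 on the minus strand, and the Fcer1g window chr1:171234300-171234599 on the minus strand. Capitals mark matches to the motifs searched on both strands.
Fcgr4: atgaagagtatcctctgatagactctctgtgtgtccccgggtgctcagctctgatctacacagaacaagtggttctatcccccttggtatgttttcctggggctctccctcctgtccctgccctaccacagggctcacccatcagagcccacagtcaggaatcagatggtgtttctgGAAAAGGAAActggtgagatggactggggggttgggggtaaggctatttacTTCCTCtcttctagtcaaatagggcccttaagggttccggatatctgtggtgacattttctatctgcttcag
Fcgr1: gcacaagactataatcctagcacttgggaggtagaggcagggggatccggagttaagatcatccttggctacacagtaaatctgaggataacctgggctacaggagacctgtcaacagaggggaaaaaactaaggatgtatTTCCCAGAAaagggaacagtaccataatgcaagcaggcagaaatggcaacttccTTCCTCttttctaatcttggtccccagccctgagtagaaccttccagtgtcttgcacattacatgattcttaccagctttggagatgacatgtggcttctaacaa
Fcer1g: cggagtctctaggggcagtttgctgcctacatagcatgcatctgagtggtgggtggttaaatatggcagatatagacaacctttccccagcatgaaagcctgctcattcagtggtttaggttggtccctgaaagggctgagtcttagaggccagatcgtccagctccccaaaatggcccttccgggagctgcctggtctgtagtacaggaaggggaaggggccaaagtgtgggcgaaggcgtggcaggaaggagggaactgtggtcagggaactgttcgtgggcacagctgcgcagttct
The motifs were the core of the interferon-stimulated response element, a pair of GAAA blocks with any 2 bases between them, TTCNNNGAA, the interferon-gamma activated site bound by STAT dimers, and GAGGAA, a core bound by the myeloid and B cell factor PU.1, with TTCCTC on the opposite strand. No marked match overlaps another. The Fcgr4 window held GAAAAGGAAA from -73 to -64, a motif present in 3.47% of 26994 genes' windows, and TTCCTC starting at -22. The Fcgr1 window held TTCCCAGAA from -109 to -101, a motif present in 8.46% of the windows, and TTCCTC starting at -55. The GAGGAA core was present in 28.3% of the windows, among them both Fcgr3 windows. The Fcer1g and Fcgr2b windows held no match to these motifs.

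The largest changes among the 5 genes were those of Fcgr4 and Fcer1g, which rose at 3 h and were still above untreated spleen at 72 h, while Fcgr1 rose at 9 h and Fcgr3 at 72 h. Fcgr2b did not pass the test against untreated spleen at any time, although it did under some alternatives at 1 h, 24 h and 72 h. Of the 5 genes, 0 were called at 0.5 h and 0 at 1 h, against 0.256% and 3.3% of all genes. At 3 h 2 of 5 were called, against 9.96% of all genes. At 9 h 3 of 5 were called, against 6.96%. At 24 h again 3 of 5 were called, against 8.44%, and at 72 h 4 of 5, against 10.6%. Every one of these calls was higher after CpG ODN. The control ODN was given for 3 h only, so the calls at 9 h, 24 h and 72 h rest on untreated spleen alone.

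**Figure D1:**
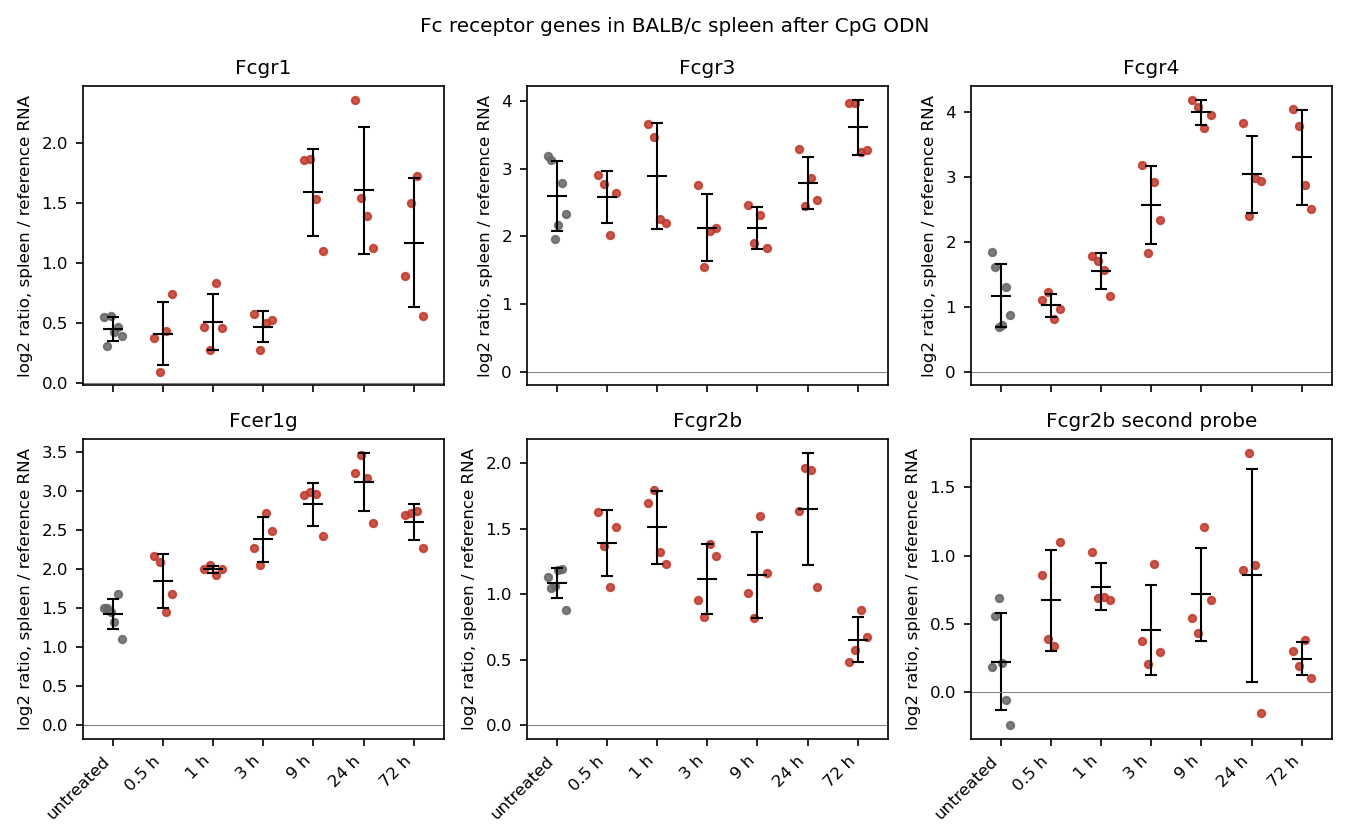
Log2 ratio of spleen over reference RNA (vertical axis) for each probe of the 5 genes in untreated BALB/c spleen and at 6 times after CpG ODN (horizontal axis). Points are arrays and bars give the group mean and SD (n = 6 untreated, n = 4 at each time). Fcgr4 peaks at 9 h with a mean of 4.00, Fcer1g at 24 h with a mean of 3.11, and the standing Fcgr2b probe has its lowest mean, 0.65, at 72 h.

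Fcgr4 encodes a receptor that binds IgG2a, IgG2b and IgG2c and is found on monocytes, macrophages and neutrophils. Its log2 ratio averaged 1.17 ± 0.49 (SD, n = 6) in untreated BALB/c spleen, then 1.03 ± 0.18 at 0.5 h, 1.55 ± 0.28 at 1 h, 2.57 ± 0.61 at 3 h, 4.00 ± 0.19 at 9 h, 3.04 ± 0.60 at 24 h and 3.31 ± 0.73 at 72 h (SD, n = 4 each). The 4 arrays at 9 h read 4.20, 4.08, 3.76 and 3.96, against a lowest of 0.69, a median of 1.09 and a highest of 1.85 in the 6 untreated spleens. No array of 9, 24 or 72 h overlapped the untreated range, and at 3 h the lowest array, 1.83, lay just inside it.

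The log2 change of Fcgr4 against untreated spleen was 1.40 ± 0.30 at 3 h (limma, adjusted p = 0.00104) and 2.83 ± 0.30 at 9 h (limma, adjusted p = 1.09e-08), a 7.08-fold difference. At 24 h it was 1.87 (limma, adjusted p = 4.12e-05) and at 72 h 2.14 (limma, adjusted p = 8.54e-06). Between neighbouring times Fcgr4 rose by 1.02 ± 0.32 at 3 h over 1 h (limma, adjusted p = 0.0405) and by 1.43 ± 0.32 at 9 h over 3 h (limma, adjusted p = 0.0197), with no overlap of the groups either time. Both step calls were lost with the run as a block (limma, adjusted p = 0.234 and 0.105). With single arrays left out, the limma adjusted p ran from 0.0176 to 0.149 for the first step. For the second step it ran from 0.0121 to 0.124. The difference of -0.95 ± 0.32 at 24 h against 9 h did not pass (limma, adjusted p = 0.0674). With the run as a block the changes were 1.43 at 3 h (limma, adjusted p = 0.0774), 2.92 at 9 h (0.00571) and 1.70 at 24 h (0.216), so that of these only the 9 h call held, and the 9 h and 24 h arrays shared no run with an untreated array.

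Fcer1g, the signalling chain shared by the activating receptors and by the high-affinity IgE receptor, rose from 3 h on. Its log2 ratio averaged 1.42 ± 0.20 (SD, n = 6) in untreated BALB/c spleen, then 1.84 ± 0.34 at 0.5 h, 1.99 ± 0.05 at 1 h, 2.38 ± 0.29 at 3 h, 2.83 ± 0.27 at 9 h, 3.11 ± 0.37 at 24 h and 2.60 ± 0.23 at 72 h (SD, n = 4 each). At 24 h the arrays read 3.24, 3.46, 3.17 and 2.59, against a lowest of 1.10, a median of 1.47 and a highest of 1.68 in untreated spleen. From 1 h on no array overlapped the untreated range.

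The log2 change of Fcer1g was 0.96 ± 0.18 at 3 h (limma, adjusted p = 0.000264), 1.41 ± 0.18 at 9 h (7.44e-07), 1.69 ± 0.18 at 24 h (3.96e-08) and 1.18 ± 0.18 at 72 h (4.53e-05). The 24 h difference is 3.23-fold. The difference of 0.57 ± 0.18 at 1 h did not pass (limma, adjusted p = 0.078), although all 4 arrays lay above every untreated one. No step between neighbouring times passed for Fcer1g. With the run as a block the 3 h, 9 h and 24 h calls held, at 1.18, 1.85 and 2.09 (limma, adjusted p = 0.0113, 0.00481 and 0.00332).

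Fcgr1 encodes the high-affinity IgG receptor of macrophages and monocytes. Its log2 ratio averaged 0.45 ± 0.10 (SD, n = 6) in untreated BALB/c spleen, then 0.41 ± 0.27 at 0.5 h, 0.51 ± 0.23 at 1 h, 0.47 ± 0.13 at 3 h, 1.59 ± 0.36 at 9 h, 1.60 ± 0.53 at 24 h and 1.17 ± 0.54 at 72 h (SD, n = 4 each). The 9 h arrays read 1.86, 1.86, 1.53 and 1.10 and the 24 h arrays 2.36, 1.54, 1.39 and 1.13, against a lowest of 0.31, a median of 0.45 and a highest of 0.56 in untreated spleen. All 8 of these arrays lay above every untreated one, whereas at 72 h the arrays were 0.90, 1.50, 1.72 and 0.56 and the lowest touched the untreated range.

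The log2 change of Fcgr1 was 0.02 ± 0.21 at 3 h (95% interval -0.41 to 0.45), 1.14 ± 0.21 at 9 h (limma, adjusted p = 0.000268), 1.15 ± 0.21 at 24 h (0.000316) and 0.72 ± 0.21 at 72 h (0.0255). Fcgr1 was called from 9 h on, and its step of 1.12 ± 0.23 at 9 h over 3 h passed (limma, adjusted p = 0.00693). The 72 h call was lost without replicate 2 or 3 of that time (limma, adjusted p = 0.114 and 0.154). With the run as a block the 9 h and 24 h values were 1.16 and 0.93 and neither passed (limma, adjusted p = 0.229 and 0.309), while the step at 9 h over 3 h did, at 1.16 (limma, adjusted p = 0.0338).

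Fcgr3 encodes the low-affinity activating receptor of macrophages, neutrophils and NK cells. Its log2 ratio averaged 2.60 ± 0.52 (SD, n = 6) in untreated BALB/c spleen, then 2.58 ± 0.39 at 0.5 h, 2.89 ± 0.78 at 1 h, 2.13 ± 0.50 at 3 h, 2.13 ± 0.31 at 9 h, 2.78 ± 0.39 at 24 h and 3.61 ± 0.41 at 72 h (SD, n = 4 each). At 72 h the arrays read 3.97, 3.97, 3.25 and 3.27, against a lowest of 1.95, a median of 2.56 and a highest of 3.19 in untreated spleen, without overlap. The log2 change at 72 h was 1.02 ± 0.30 (limma, adjusted p = 0.0253), and it missed the threshold without replicate 3 or 4 of untreated spleen (0.0602 and 0.0562), without replicate 1 or 2 of 72 h (0.0856 and 0.101) and under quantile normalization (0.057). At 3 h and 9 h the difference was -0.47 ± 0.30 at either time (95% interval -1.07 to 0.13). Under quantile normalization the 3 h difference was -0.75 and passed (limma, adjusted p = 0.0402).

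At 1 h the Fcgr3 arrays were 3.66, 3.47, 2.25 and 2.19, the higher pair in the first run of array numbers and the lower pair in the second. Within the first run, the log2 difference at 1 h was 1.08 for Fcgr3 (limma, adjusted p = 0.0394) and 0.66 for Fcgr2b (limma, adjusted p = 0.033), against 0.30 (adjusted p = 0.646) and 0.43 (adjusted p = 0.254) over all arrays. That fit held only the higher pair of the 1 h arrays. In the second run the lower pair lay below the untreated array of that run for Fcgr3, at 2.25 and 2.19 against 3.13. For Fcgr2b the same pair lay above it, at 1.32 and 1.23 against 1.05.

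Fcgr2b encodes the inhibitory receptor. Its standing probe averaged 1.08 ± 0.12 (SD, n = 6) in untreated BALB/c spleen, then 1.39 ± 0.25 at 0.5 h, 1.51 ± 0.28 at 1 h, 1.11 ± 0.27 at 3 h, 1.14 ± 0.33 at 9 h, 1.65 ± 0.43 at 24 h and 0.65 ± 0.17 at 72 h (SD, n = 4 each). At 9 h the log2 change of this probe against untreated spleen was 0.06 ± 0.19 (95% interval -0.33 to 0.46), beside the 2.83 of Fcgr4 on the same arrays. The second probe changed by 0.49 ± 0.25 at 9 h in the fit of all probes (limma, adjusted p = 0.332), with all 4 arrays above the untreated mean. At 24 h the arrays of the standing probe read 1.64, 1.96, 1.95 and 1.05, against 0.88 to 1.19 in untreated spleen, and 3 of the 4 lay above it. The change of 0.57 ± 0.19 at 24 h did not pass (limma, adjusted p = 0.0618), and it did without replicate 4 of that time, at 0.77 (0.00858), and with array weights, at 0.65 (0.0158).

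At 72 h Fcgr2b read 0.48, 0.58, 0.88 and 0.67, against 1.64, 1.96, 1.95 and 1.05 at 24 h, and it fell by 1.00 ± 0.21 between these times (limma, adjusted p = 0.00579). All 4 arrays of 72 h also lay below every untreated array, although the difference of -0.43 ± 0.19 from untreated spleen did not pass (limma, adjusted p = 0.141). It passed with only the groups compared (0.0489) and with array weights, at -0.52 (0.00457), and with the mean of both probes it was -0.21 (0.543). The second Fcgr2b probe differed by -0.61 ± 0.27 at 72 h against 24 h in the fit of all probes (limma, adjusted p = 0.263), and by 0.02 ± 0.25 at 72 h against untreated spleen. The 2 probes had a Pearson correlation of 0.64 over the 50 arrays. Mouse Fcgr2b and Fcgr3 share closely similar extracellular sequence, and whether either gene's probes read the other's RNA was not tested.

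Over the steps between neighbouring times, 0 of 5 genes were called at 1 h against 0.5 h, where 0.694% of all genes were. At 3 h against 1 h 1 of 5 was called (10.1% of all genes), at 9 h against 3 h 2 of 5 (0.996%), at 24 h against 9 h 0 of 5 (6.92%) and at 72 h against 24 h 1 of 5, the fall of Fcgr2b (3.32%). All arrays of 9 h lay above all arrays of 3 h for both Fcgr1 and Fcgr4, which were the genes called at that step.

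Since Fcgr4 and Fcgr2b have opposite effects on a cell that carries both, their log2 ratios were also subtracted array by array. Only the standing Fcgr2b probe was used for this. The absolute size of the difference of Fcgr4 minus Fcgr2b depends on the probes and has no reading of its own, so only its shift between groups is described. It was 3.19, 3.26, 2.17 and 2.80 at 9 h and 3.58, 3.21, 2.00 and 1.84 at 72 h, against a lowest of -0.47, a median of 0.06 and a highest of 0.72 in untreated BALB/c spleen. At 24 h, when Fcgr2b had its highest BALB/c mean, it was 2.21, 0.44, 1.04 and 1.89 and overlapped the untreated range. At 3 h it was 2.24, 1.00, 1.53 and 1.05, above every untreated array. After control ODN at 3 h it was 0.16, 1.08, -0.66 and 0.12, which overlapped the CpG ODN arrays of that time.

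**Figure D2:**
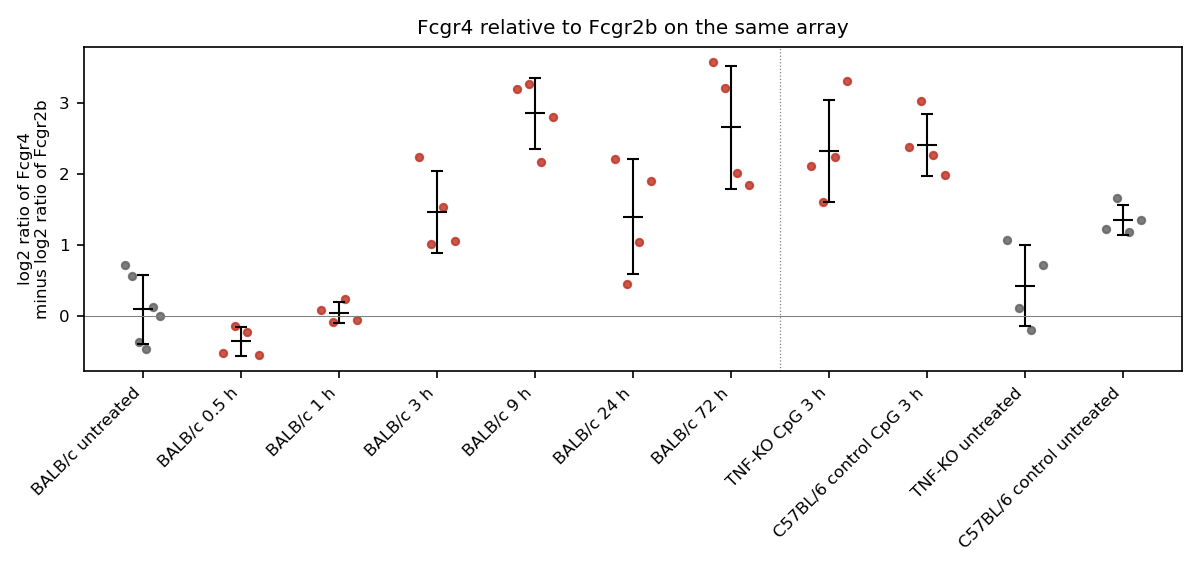
Log2 ratio of Fcgr4 minus that of the standing Fcgr2b probe on the same array (vertical axis) in BALB/c spleen over time and in the 4 C57BL/6 groups (horizontal axis). Points are arrays and bars give mean and SD (n = 6 in untreated BALB/c, n = 4 in all other groups). The 9 h arrays sit between 2.17 and 3.26, all above the untreated BALB/c arrays. The control ODN arrays are not drawn.

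With the control ODN, 0 of 5 genes were called against untreated spleen, where 1.42% of all genes were. All 5 had a positive log2 difference, between 0.34 for Fcgr2b and 0.46 for Fcer1g, where the median over all genes was 0.09. The unadjusted limma p was 0.0472 for Fcgr1 and 0.0168 for Fcer1g, and 3415 of 15263 genes had one under 0.05. Fcgr1 read 1.31, 0.60, 0.74 and 0.88 after control ODN, against 0.31 to 0.56 in untreated spleen, without overlap (0.43 ± 0.21; limma, adjusted p = 0.219). Without replicate 4 of the control ODN group Fcer1g passed, at 0.61 (limma, adjusted p = 0.0318).

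Set against control ODN at the same 3 h, CpG ODN gave 1 call among the 5 genes, where 18.3% of all genes were called. Fcgr4 was 3.19, 1.83, 2.92 and 2.34 after CpG ODN, against 1.80, 2.24, 1.32 and 1.02 after control ODN, and rose by 0.98 ± 0.32 (limma, adjusted p = 0.0335). The groups overlapped, the call was lost without replicate 1 or 3 of the CpG group (0.128 and 0.101) or replicate 3 or 4 of the control ODN group (0.106 and 0.0956), and no run held arrays of both groups. Fcer1g differed by 0.50 ± 0.20 (limma, adjusted p = 0.0757) and Fcgr3 by -0.86 ± 0.32 (limma, adjusted p = 0.0614). Fcgr3 passed as lower under quantile normalization, array weights and the replicate block (limma, adjusted p = 0.0473, 0.0135 and 0.0135). Fcer1g passed as higher under the same alternatives (limma, adjusted p = 0.0195, 0.0183 and 0.0498) and with arrays scaled to the same spread (0.0048).

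**Figure D3:**
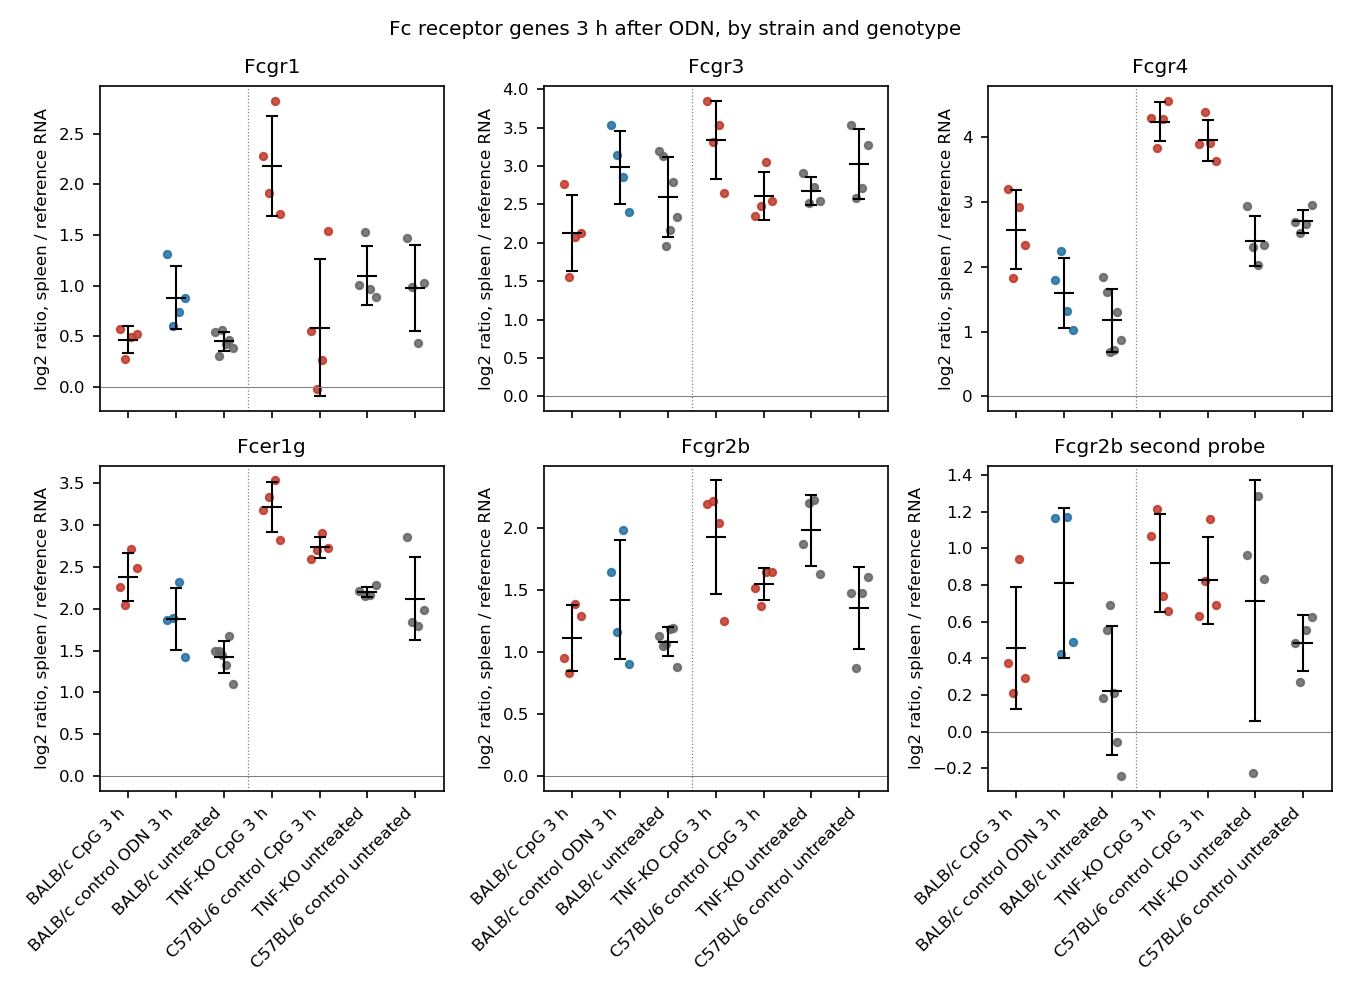
Log2 ratio of spleen over reference RNA (vertical axis) for each probe 3 h after CpG ODN or control ODN and in untreated spleen (horizontal axis), with BALB/c left and C57BL/6 right of the dotted line. Points are arrays and bars give mean and SD (n = 6 in untreated BALB/c, n = 4 in all other groups). Fcgr4 is higher in all CpG arrays than in untreated spleen of the same genotype in C57BL/6 mice, and Fcgr1 separates the CpG-treated TNF-KO arrays, 1.71 to 2.82, from the CpG-treated control arrays, -0.02 to 1.54.

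In C57BL/6 mice Fcgr4 rose at 3 h in both genotypes. In TNF-KO spleen it read 4.30, 3.82, 4.27 and 4.56 after CpG ODN, against 2.94, 2.31, 2.02 and 2.33 untreated. In control spleen it read 3.89, 4.39, 3.90 and 3.62 after CpG ODN, against 2.69, 2.52, 2.65 and 2.95 untreated. No CpG array overlapped the untreated arrays of its genotype.

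The log2 change of Fcgr4 was 1.84 ± 0.21 in TNF-KO spleen (limma, adjusted p = 2.08e-05) and 1.25 ± 0.21 in control spleen (limma, adjusted p = 0.000991). The difference of these responses, 0.59 ± 0.30 (95% interval -0.05 to 1.23), did not pass (limma, adjusted p = 0.643). Both calls held with the run as a block, at 1.84 and 1.25 (limma, adjusted p = 0.00213 and 0.0106). Beside this rise, 8 of 15 neutrophil markers were higher and 0 lower in TNF-KO spleen, where 3.77% of all genes were called. Their array means were 3.24 to 4.04 after CpG ODN, against 1.59 to 3.12 untreated. In control spleen 7 of 15 neutrophil markers were higher and 0 lower, where 7.72% of all genes were called. Their array means there were 3.56 to 4.61 after CpG ODN, against 2.55 to 3.08 untreated. The part of these markers in the Fcgr4 values was not tested.

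Fcer1g read 3.18, 3.34, 3.54 and 2.83 in TNF-KO spleen after CpG ODN, against 2.21, 2.16, 2.17 and 2.29 untreated. In control spleen it read 2.60, 2.70, 2.91 and 2.73 after CpG ODN, against 2.86, 1.85, 1.80 and 1.99 untreated. The TNF-KO groups did not overlap, and in control spleen untreated replicate 1 lay among the CpG arrays. Fcer1g rose by 1.02 ± 0.21 in TNF-KO spleen (limma, adjusted p = 0.00719), and its difference of 0.61 ± 0.21 in control spleen did not pass (0.0878), but did without untreated replicate 1, at 0.86 (0.0055).

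In all, 2 of 5 genes were called after CpG ODN in TNF-KO spleen, where 3.77% of all genes were, and 1 of 5 in control spleen, where 7.72% were. For the standing Fcgr2b probe the log2 difference was -0.06 ± 0.22 in TNF-KO spleen (95% interval -0.52 to 0.41) and 0.19 ± 0.22 in control spleen (95% interval -0.28 to 0.66). For the second probe it was 0.21 ± 0.25 and 0.34 ± 0.25 in the fit of all probes (limma, adjusted p = 0.819 and 0.506). In control spleen the groups of the second probe did not overlap.

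Fcgr1 was the 1 gene of the 5 called between genotypes after CpG ODN, where 0.361% of all genes were called. It read 2.28, 1.91, 2.82 and 1.71 in CpG-treated TNF-KO spleen, against 0.56, -0.02, 0.27 and 1.54 in CpG-treated control spleen. The groups did not overlap, but control replicate 4 came close to TNF-KO replicate 4, and both lie in the same run. In the other run that holds both groups, TNF-KO replicates 2 and 3 read 1.91 and 2.82, against -0.02 in control replicate 2. The log2 difference was 1.60 ± 0.31 (limma, adjusted p = 0.026), a 3.02-fold difference. It kept its size but missed the threshold with the run as a block, at 1.54 (limma, adjusted p = 0.122), with only the groups compared in the fit (0.0894), and without TNF-KO replicate 1 (0.0786) or 3 (0.106) or control replicate 1 (0.1), 2 (0.127) or 3 (0.0841).

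In untreated spleen Fcgr1 read 1.01, 1.53, 0.97 and 0.89 in TNF-KO mice, against 1.47, 0.99, 0.44 and 1.03 in control mice, and 0 of 5 genes were called between the untreated genotypes, where 0.562% of all genes were. Its response to CpG ODN was 1.08 ± 0.31 in TNF-KO spleen (limma, adjusted p = 0.0603) and -0.40 ± 0.31 in control spleen (limma, adjusted p = 0.506). The difference of the responses was 1.48 ± 0.44, with an unadjusted p of 0.00319 and an adjusted p of 0.441 in limma. None of the 5 genes was called for this difference, 0 against 0.0268% of all genes. An unadjusted limma p under 0.05 was found for 2 of the 5, Fcgr1 and Fcgr3 (1.09 ± 0.36), and for 1186 of 14951 genes. Of 19 monocyte and macrophage markers measured, 1 was called in TNF-KO against control spleen after CpG ODN, where 0.361% of all genes were. It was the chemokine receptor gene Ccr2, at 2.14 (limma, adjusted p = 0.000345). The mean log2 ratio of the 19 markers ran between 2.74 and 3.10 in CpG-treated TNF-KO arrays, against 2.37 and 2.84 in CpG-treated control arrays, and its part in the Fcgr1 difference was not tested.

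**Figure D4:**
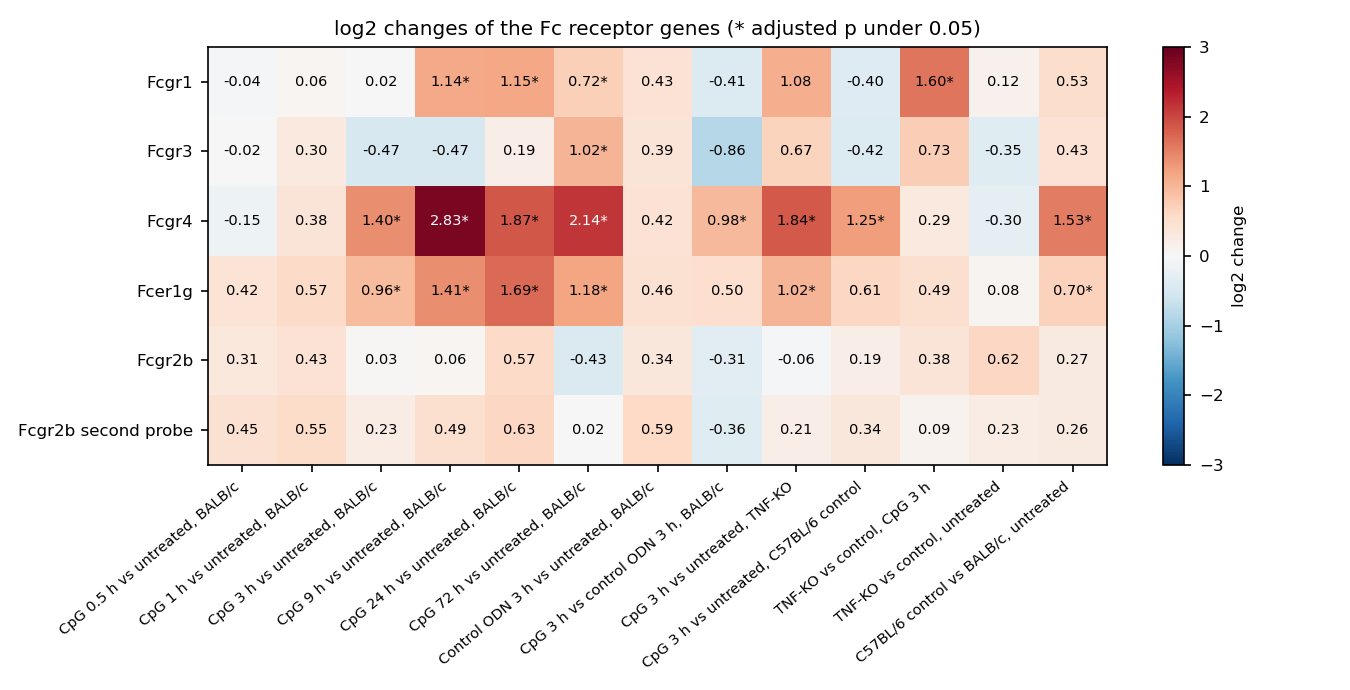
Log2 changes of the 5 genes, with the second Fcgr2b probe from the fit of all probes in the bottom row, in 13 comparisons (horizontal axis, first group over second). Red is higher and blue lower in the first group, and an asterisk marks an adjusted p under 0.05. Fcgr4 is called in 8 of the 13, and neither Fcgr2b probe is called in any.

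Between strains, untreated C57BL/6 control spleen had higher Fcgr4 and Fcer1g than untreated BALB/c spleen, so 2 of 5 genes were called, where 14.5% of all genes were. Fcgr4 read 2.69, 2.52, 2.65 and 2.95 in C57BL/6, against 0.69 to 1.85 with a median of 1.09 in BALB/c, without overlap (1.53 ± 0.27; limma, adjusted p = 7.88e-05). Fcer1g read 2.86, 1.85, 1.80 and 1.99, against 1.10 to 1.68 with a median of 1.47 in BALB/c (0.70 ± 0.19; limma, adjusted p = 0.00709), and this call was lost without C57BL/6 replicate 1, at 0.45 (0.102). Arrays of the strains share no run, so strain and run cannot be told apart. Response to CpG ODN at 3 h gave 0 of 5 calls for the difference between strains, where 0.453% of all genes were called, and the Fcgr4 difference of responses was -0.15 ± 0.40 (95% interval -0.97 to 0.66).

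Ranked by mean over the 12 groups, Fcgr4 and Fcer1g were highest in CpG-treated TNF-KO spleen (4.24 ± 0.31 and 3.22 ± 0.30, SD, n = 4), and Fcgr1 was too (2.18 ± 0.49). Fcgr3 was highest at 72 h in BALB/c spleen (3.61 ± 0.41) and the standing Fcgr2b probe in untreated TNF-KO spleen (1.98 ± 0.29). Neighbouring groups in each gene's order overlapped in range, except untreated BALB/c over 72 h for the standing Fcgr2b probe. The strains stand in this order on values centred alike, without a shared run.

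Over the 50 arrays, which share the reference RNA and the groups, Fcgr4 and Fcer1g had a Pearson correlation of 0.81 and Fcgr1 one of 0.69 with Fcer1g and 0.59 with Fcgr4. Fcgr2b and Fcgr4 had one of 0.09. For the nearest genes, those with provisional names, such as names ending in Rik, were left out. Among the 11739 other genes with a value on every array, the nearest to Fcgr4 were Ms4a6c (0.89), Oasl2 (0.87) and Bst2 (0.84). Nearest to Fcer1g were Ly6f (0.89), Plac8 (0.86) and Ifitm6 (0.84). The nearest to Fcgr1 were Fcer1g (0.69), Ifitm6 (0.67) and Casp1 (0.65), to Fcgr3 Tlr13 (0.80), Pygl (0.78) and Aplnr (0.75), and to Fcgr2b Cables2 (0.83), Stx4a (0.82) and Arpc1b (0.82).

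Of 13 other receptors that signal through the common gamma chain and were measured in BALB/c, 2 were higher and 0 lower at 3 h, 3 were higher and 0 lower at 24 h, and 3 were higher and 0 lower at 72 h, where 9.96%, 8.44% and 10.6% of all genes were called, with list medians of 0.07, 0.36 and 0.57 against -0.03, 0.03 and 0.03 over all genes. The C-type lectin receptor genes Clec4d and Clec4e rose by 1.84 and 0.93 at 3 h (limma, adjusted p = 6.06e-07 and 0.00113), and Clec4b1 rose by 1.32 at 24 h (0.000415). In C57BL/6 mice Clec4d rose by 2.46 in TNF-KO and 2.95 in control spleen (limma, adjusted p = 3.37e-05 and 4.99e-06). Of 8 genes for other ITAM adaptors, Tyrobp, which encodes the DAP12 chain, rose by 0.95 at 24 h (limma, adjusted p = 0.00312), the 1 call of that time. At 72 h 1 was higher, again Tyrobp at 0.79 (0.0155), and 2 lower, the T cell receptor chains Cd3e at -0.94 (0.000286) and Cd3g at -0.78 (0.00587).

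Downstream of the activating receptors, 2 of 21 measured genes were higher and 3 lower at 3 h in BALB/c, where 9.96% of all genes were called. Cybb, which encodes a subunit of the phagocyte NADPH oxidase, rose by 1.23 (limma, adjusted p = 0.00942), and the adaptor gene Lat2 fell by 1.44 (limma, adjusted p = 1.41e-05). At 24 h 1 of 21 was called, where 8.44% of all genes were, the Src-family kinase gene Fgr at 1.40 (limma, adjusted p = 0.00485). On the inhibitory side, 2 of 16 measured genes were higher and 2 lower at 3 h, beside the same 9.96% of all genes. Lilrb4a, an ITIM receptor of myeloid cells, rose by 2.16 at 3 h (limma, adjusted p = 3.27e-07), by 1.72 at 9 h (2.7e-05), by 1.78 at 24 h (2.57e-05) and by 1.46 at 72 h (0.000691). Inpp5d, the phosphatase gene that acts with Fcgr2b, fell by 0.65 at 3 h (limma, adjusted p = 0.0305).

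Among 6 measured relatives of the Fc receptors, Fcgrt, which encodes the neonatal Fc receptor that salvages IgG, fell by 0.89 at 3 h (limma, adjusted p = 0.0111) and by 1.20 at 9 h (limma, adjusted p = 0.000722). Fcer2a, the low-affinity IgE receptor of B cells, fell by 1.34 at 72 h (limma, adjusted p = 0.00777). These were the only relatives called at those 3 times, where 9.96%, 6.96% and 10.6% of all genes were called. At 24 h 0 of the 6 were called, against 8.44% of all genes.

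Of 19 interferon-inducible regulators measured, 9 were higher and 0 lower at 3 h, 7 and 0 at 9 h, 5 and 0 at 24 h and 6 and 0 at 72 h. At these times 9.96%, 6.96%, 8.44% and 10.6% of all genes were called. The list medians were 0.79, 0.50, 0.45 and 0.64, against -0.03, -0.02, 0.03 and 0.03 over all genes. The guanylate-binding protein gene Gbp2 rose by 3.44 at 3 h (limma, adjusted p = 1.87e-12) and by 2.77 at 9 h (limma, adjusted p = 5.72e-10). The mean log2 ratio of the 19 genes peaked at 3 h, between 1.56 and 1.76, against 0.55 and 0.78 in untreated spleen. It ran between 0.93 and 1.08 at 0.5 h and between 1.29 and 1.67 at 1 h. The Fcgr4 mean peaked at 9 h, and a link of these genes to it was not tested.

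In whole spleen, more cells of a type and more RNA per cell cannot be told apart. Of 19 monocyte and macrophage markers measured in BALB/c, 4 were higher and 1 lower at 3 h, 5 and 2 at 9 h, 8 and 0 at 24 h and 8 and 0 at 72 h, where 9.96%, 6.96%, 8.44% and 10.6% of all genes were called. Their mean log2 ratio per array was 2.63 to 2.83 at 3 h, 2.41 to 2.67 at 9 h, 2.97 to 3.48 at 24 h and 2.65 to 3.40 at 72 h, against 2.18 to 2.53 in untreated spleen. At 9 h, when Fcgr4 was highest, the markers' median change was 0.10, and their array means overlapped the untreated range. The scavenger receptor gene Msr1 was among the markers that rose at 9 h, by 1.80 (limma, adjusted p = 5.55e-07), and the mannose receptor gene Mrc1 fell by 2.33 (limma, adjusted p = 2.35e-05).

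Of 15 neutrophil markers, 7 were higher and 0 lower at 1 h, when no Fc receptor gene was called and 3.3% of all genes were. These markers numbered 6 higher and 0 lower at 3 h and at 9 h, 3 and 0 at 24 h and 4 and 0 at 72 h, where 9.96%, 6.96%, 8.44% and 10.6% of all genes were called. Their mean per array was 2.95 to 3.75 at 1 h and 2.91 to 3.36 at 9 h, against 1.64 to 2.36 in untreated spleen. After control ODN 3 of the 15 were higher and 0 lower, where 1.42% of all genes were called. At 72 h, beside the Fcgr3 rise, 4 of 11 NK cell markers were higher and 0 lower, where 10.6% of all genes were called. Their median change was 0.81, and their mean per array was 3.06 to 3.72, against 2.14 to 3.21 in untreated spleen. At the same time 4 of 12 T cell markers were lower and 0 higher, with a mean per array of 0.96 to 1.10, against 1.18 to 1.65 in untreated spleen. Beside the low values of the standing Fcgr2b probe at 72 h, 3 of 13 B cell markers were lower and 0 higher, against the same 10.6% of all genes. Their mean per array was 2.27 to 2.89, against 2.80 to 3.37 in untreated spleen. Fcer2a, Pax5 (-0.76) and Ebf1 (-0.57) were the B cell markers called. The part of these cell types in the Fc receptor values was not tested.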

How the data were processed

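The files deposited by the authors hold a log2 ratio per probe and array, of spleen RNA (Cy5) to reference RNA (Cy3), with 1 array per sample. Per the series' design text, background was corrected, flagged spots and spots dim in both channels were dropped, and lowess normalization of the log2 ratio followed in BRB ArrayTools. Spot intensities were not used here, so signal over background is unknown. A shift of most genes would be removed by lowess.

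Each array was centred on its median (deposited medians ran between -0.0179 and 0.019, with 27619 to 30590 values per array). Probes with 1 gene symbol were kept (26926 of 36607; 203 had several and 9478 none), the probe with most values stood for its gene, and the first on ties. Symbols came from the platform annotation, updated through RefSeq gene tables (GRCm38.p6) for 28 probes. A probe had to be present on over 70% of a fit's arrays. Group means were fitted with limma 3.58.1 (lmFit, eBayes) in R 4.3.3 over 34 BALB/c arrays, 16 C57BL/6 arrays, or all 50 for strains, with Benjamini-Hochberg adjustment over all genes and a threshold of 0.05. The fit was tested on simulated data. Figures and summaries used Python 3.11.15 and pandas 2.3.3.

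Arrays were grouped by title. Per the series text each time holds 4 independent experiments. Same-numbered arrays correlated over 0.1 in 31 of 68 pairs and in every pair of 0 comparisons, so the numbers were not used as pairs. The members, gene lists and tests were chosen with earlier results of these data known. Named genes are the 5 members, up to 4 members per list with the smallest p, and the 3 nearest genes per member. Alternatives varied scaling, probe choice, samples fitted, weights, blocks, run, the pancreas covariate and a 2-fold minimum, and left out each array in turn.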

Additional observations from a re-analysis of the deposited data

Results flagged for a closer look

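Of 72 sets of values, 1 per probe and group, 3 held an array far from the others, where chance marks about 1 in 20 such sets. At 1 h after CpG ODN in BALB/c spleen, replicate 1 of the second Fcgr2b probe was 1.029, above the other 3 arrays at 0.671 to 0.693. At 9 h, replicate 4 of Fcer1g was 2.42, below the others at 2.943 to 2.987, and at 72 h replicate 4 of Fcer1g was 2.263, below the others at 2.685 to 2.746. Both Fcer1g values lay above every untreated BALB/c array.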

How the results depend on the processing

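No called log2 change of a member changed sign. Of the changes that were not called, 22 had the opposite sign under at least 1 alternative, none of them with an adjusted p below 0.567. Each log2 change of a member, called or not, was then counted once per alternative that could estimate it. With 1 array left out, 931 of these values kept their side of the threshold, 27 lost the call and 12 gained it. Under the other alternatives these numbers were 1136, 19 and 30. The fixed run block gave no estimate for 72 h against untreated spleen or against 24 h. It also gave none for control ODN against untreated spleen, CpG over control ODN, or the untreated strains. Of the 5 genes, the number called changed as follows, and the cause was not tested. With the run as a fixed block it was 1 at 3 h (2 before), 2 at 9 h (3 before), 1 at 24 h (3 before), 0 at 3 h over 1 h (1 before), 1 at 9 h over 3 h (2 before), 1 at 24 h over 9 h (0 before), 2 for CpG in C57BL/6 control (1 before) and 0 for TNF-KO over control after CpG (1 before). In the first run alone it was 2 at 1 h (0 before). With only the groups compared it was 1 at 1 h (0 before), 5 at 72 h (4 before), 3 for CpG in TNF-KO (2 before), 0 for CpG over control ODN (1 before) and 0 for TNF-KO over control after CpG (1 before). With array weights it was 1 at 1 h (0 before), 4 at 24 h (3 before), 5 at 72 h (4 before), 3 for CpG in TNF-KO (2 before), 2 at 3 h over 1 h (1 before), 2 at 72 h over 24 h (1 before), 3 for CpG over control ODN (1 before) and 2 for CpG in C57BL/6 control (1 before). Scaling arrays to the same spread gave 2 at 3 h over 1 h, 1 at 9 h over 3 h (2 before), 2 at 72 h over 24 h, 2 for CpG over control ODN, 2 for CpG in C57BL/6 control and 1 for the strains (2 before). Quantile normalization gave 3 at 3 h (2 before), 3 at 72 h (4 before), 2 at 3 h over 1 h, 1 at 24 h over 9 h (0 before), 2 at 72 h over 24 h, 3 for CpG over control ODN and 1 for the strains (2 before). A 2-fold minimum gave 1 at 3 h (2 before), 3 at 72 h (4 before), 0 at 72 h over 24 h, 0 for CpG over control ODN and 1 for the strains. Some of the added calls were lower. Quantile normalization added lower calls of Fcgr3 at 3 h and over control ODN, Fcgr4 at 24 h over 9 h and Fcer1g at 72 h over 24 h. Array weights added lower calls of Fcgr2b at 72 h and Fcgr3 over control ODN. With only the groups compared Fcgr2b was lower at 72 h, and with the run block Fcgr4 at 24 h over 9 h.

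The replicate numbers were not used as pairs, since no comparison had every same-numbered pair correlated over 0.1, which does not exclude pairing. With the replicate block the number called was 3 at 72 h (4 before), 2 at 3 h over 1 h (1 before), 1 at 24 h over 9 h (0 before) and 3 for CpG over control ODN (1 before). Fcgr1 at 72 h lost its call (0.71, limma, adjusted p = 0.0585). The added calls of Fcgr3 at 3 h over 1 h and for CpG over control ODN and of Fcgr4 at 24 h over 9 h were lower. With single arrays left out the number ran between 3 and 4 at 24 h, 2 and 4 at 72 h, 0 and 1 at 3 h over 1 h, 1 and 2 at 9 h over 3 h, 0 and 1 at 24 h over 9 h, 0 and 1 for control ODN, 0 and 2 for CpG over control ODN, 1 and 2 for CpG in C57BL/6 control, 2 and 4 for CpG in TNF-KO, 0 and 1 for TNF-KO over control after CpG, and 1 and 2 for the strains.

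Over all genes the number called moved as well. At 3 h it was 1520 and ran between 596 (2-fold minimum) and 2599 (array weights), at 9 h 1062 between 185 (run block) and 1788, at 24 h 1289 between 160 (run block) and 2192, at 72 h 1621 between 331 and 5668 (array weights), and for control ODN 216 between 0 and 2117. For TNF-KO over control after CpG it was 54, between 19 and 154. Intensities were not used here, so the precision of dim spots is unknown, and 4 arrays a group limit all tests.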
